A study of Mus musculus with 6 samples.

Results

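The 9 genes of renal ammonia production and acid-base transport were compared between *Ptpn6*+/mev and wild-type kidneys that had gone through ischemia-reperfusion injury (IRI). The members, *Slc38a3*, *Glud1*, *Glul*, *Rhcg*, *Rhbg*, *Car2*, *Car4*, *Slc4a4* and *Slc9a3*, were taken by their symbols from the deposited expression table, and all 9 were found among its 21367 genes. They were chosen with the difference between these groups already known, so their values in that contrast are a description, and no test is built on them. All 9 passed the filter on low counts.

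The study sequenced mRNA from the left kidney of 3 *Ptpn6*+/mev and 3 wild-type mice, each 7 weeks old, with 1 library per mouse. *Ptpn6*+/mev mice, on a C57BL/6 background, are heterozygous for viable motheaten, a splice-site mutation in *Ptpn6*, the gene for the tyrosine phosphatase SHP-1, and the labels call them SHP1 knockdown. It is a germline allele, carried by the tubule and by the blood cells within the kidney alike. The wild-type mice were littermates without the allele. In both groups the right kidney was removed and the left renal pedicle was clamped for 34 min, followed by 24 h of reperfusion, and kidneys without IRI were not analysed here.

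In the proximal tubule, glutamine is taken up from the blood and split in the mitochondria, which yields ammonium for the urine and new bicarbonate for the blood. Ammonium leaves the proximal cell largely on the apical sodium-proton exchanger, is reabsorbed by the thick ascending limb, and reaches the urine of the collecting duct through Rh glycoproteins. The same segments reclaim filtered bicarbonate with carbonic anhydrases at the membrane and in the cytosol, and return it to the blood by basolateral cotransport. Glutamine synthetase runs the opposite way, since it consumes ammonia.

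RefSeq promoter windows on GRCm38.p6, each running from 250 bases before to 50 bases after an annotated start, were matched for 6 of the 9 members with 7 starts in all (*Slc4a4* has a start at the head of the gene and an internal one). *Slc38a3*, *Rhbg* and *Car2* had no entry. Windows for *Glud1*, *Slc4a4* and *Slc9a3* are printed because *Glud1* with *Slc4a4* and *Glud1* with *Slc9a3* were the closest pairs of members in their profiles over the 6 mice, as described further on. *Rhcg* with *Car4*, whose windows are not printed, was almost as close as *Glud1* with *Slc9a3*. Capitals mark matches, on either strand, to any of 6 short motifs. The TATA box was searched as TATAAA and the GC box as GGGCGG. The box bound by the factor NF-Y was searched as CCAAT. A homeodomain element was searched as GTTAAT. The forkhead core was written TGTTTAC, and the element of nuclear receptors was written AGGTCA. A match on the reverse strand appears in the printed strand as its reverse complement, and no match overlapped another motif. The *Glud1* window lies at chr14:34310477-34310776 on the plus strand, the *Slc4a4* windows at chr5:88887010-88887309 and chr5:89027716-89028015 on the plus strand, and the *Slc9a3* window at chr13:74121163-74121462 on the plus strand.
Glud1: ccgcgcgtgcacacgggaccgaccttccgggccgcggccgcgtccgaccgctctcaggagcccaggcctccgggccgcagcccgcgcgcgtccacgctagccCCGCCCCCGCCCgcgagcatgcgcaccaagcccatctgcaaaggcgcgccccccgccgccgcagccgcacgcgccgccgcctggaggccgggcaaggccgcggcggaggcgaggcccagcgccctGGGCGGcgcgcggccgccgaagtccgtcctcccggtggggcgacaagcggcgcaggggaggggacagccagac
Slc4a4, upstream start: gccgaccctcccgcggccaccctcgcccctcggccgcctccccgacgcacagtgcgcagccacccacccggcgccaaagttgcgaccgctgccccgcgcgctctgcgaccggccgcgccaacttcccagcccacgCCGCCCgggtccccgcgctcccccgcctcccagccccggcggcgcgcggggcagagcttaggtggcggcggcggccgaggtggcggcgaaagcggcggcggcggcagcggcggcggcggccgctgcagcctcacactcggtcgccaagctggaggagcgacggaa
Slc4a4, internal start: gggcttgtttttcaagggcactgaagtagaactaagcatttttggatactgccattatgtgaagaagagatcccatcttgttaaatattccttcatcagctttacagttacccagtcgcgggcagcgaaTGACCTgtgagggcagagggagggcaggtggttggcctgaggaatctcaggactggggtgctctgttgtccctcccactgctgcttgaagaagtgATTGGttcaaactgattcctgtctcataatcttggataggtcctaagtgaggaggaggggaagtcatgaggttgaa
Slc9a3: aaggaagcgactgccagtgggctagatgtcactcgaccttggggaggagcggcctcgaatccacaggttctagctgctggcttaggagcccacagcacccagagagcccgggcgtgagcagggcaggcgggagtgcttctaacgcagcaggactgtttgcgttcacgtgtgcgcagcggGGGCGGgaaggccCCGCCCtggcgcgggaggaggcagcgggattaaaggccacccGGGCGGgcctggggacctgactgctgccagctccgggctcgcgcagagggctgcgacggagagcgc

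GC boxes were the motif these windows shared, apart from the internal *Slc4a4* start. *Glud1* held 3, at positions -148, -142 and -23 from the start site, of which those at -148 and -142 lie side by side on the reverse strand. *Slc9a3* also held 3, at -71, -58 and -16, and the upstream *Slc4a4* start held 1 at -115. The internal *Slc4a4* start held none, and instead had a reversed CCAAT at -26 and a reversed AGGTCA at -121. GC content separated these windows in the same way, at 81% for *Glud1*, 80% for the upstream *Slc4a4* start and 68.7% for *Slc9a3*, against 48.3% for the internal *Slc4a4* start and a median of 52.7% over all 32851 promoters. A GC box was present in 35.7% of all promoters, CCAAT in 37.4%, AGGTCA in 16.3%, TATAAA in 13.6%, GTTAAT in 7.1% and TGTTTAC in 3.65%. Of the windows not printed, *Rhcg* had a GC box at -141 and another at 18, *Glul* had a GC box, 2 CCAAT boxes and an AGGTCA, and *Car4* had 1 TATAAA at 43. A match is a description of letters and was not read as a binding site.

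The libraries held between 10271590 and 12361745 estimated counts. Replicates within a group differed by more than counting noise (chi-square per degree of freedom of 6.27 to 43.3), and p-values measure only the spread between these samples, each taken as a separate mouse from its numbered label. *Ptpn6* itself gave 13.4 ± 1.42 FPKM (SD, n = 3) in *Ptpn6*+/mev and 14.6 ± 3.38 FPKM (SD, n = 3) in wild-type kidneys (adjusted p = 0.715, edgeR's quasi-likelihood test). The mutation alters splicing, so this level does not check the labels. FPKM is the number of fragments scaled to transcript length and library size. Kidney tubule markers were present in every library, with a summed level of 1752 to 2666 FPKM over 5 thick ascending limb genes and 432.5 to 677.2 FPKM over 7 early proximal tubule genes. Wild-type replicate 2 stood apart. Its endothelial markers summed to 92.0 FPKM, against 229.9 to 257.1 FPKM in the other 5 libraries, the 10 genes with the most counts made up 12.6% of its total (9.21% to 10.9% elsewhere), and its TMM factor was 0.929. Results that rest most on it are also given without it, and values in each mouse are listed in the order of replicates 1, 2 and 3. In bulk kidney RNA, fewer cells of a type and less RNA per cell cannot be told apart.

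Across the 9 members, 7 log2 differences were negative and 2 positive, with a median of -0.25 against -0.002 over the 13036 tested genes. With 1 library left out the members' median lay between -0.39 and -0.16. By edgeR's quasi-likelihood test 0 of the 9 had an FDR under 0.05, where 0.138% of all tested genes did, and their FDR values ran from 0.104 to 0.961. At an unadjusted p under 0.05 there were 3, *Slc38a3*, *Glud1* and *Slc9a3*, all lower in *Ptpn6*+/mev kidneys (12.2% of all tested genes, 6.71% lower). DESeq2 and edgeR's exact test each called 2, *Slc38a3* and *Slc9a3*, where they called 3.04% and 2.99% of all genes. Without wild-type replicate 2, which carried the highest level of 5 of the 9 members, the quasi-likelihood test called the same pair, *Slc38a3* at an FDR of 0.0498 and *Slc9a3* at 0.0287, and 1.8% of all genes. Since the members were selected on this contrast, nothing further is read from these counts.

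**Figure D1:**
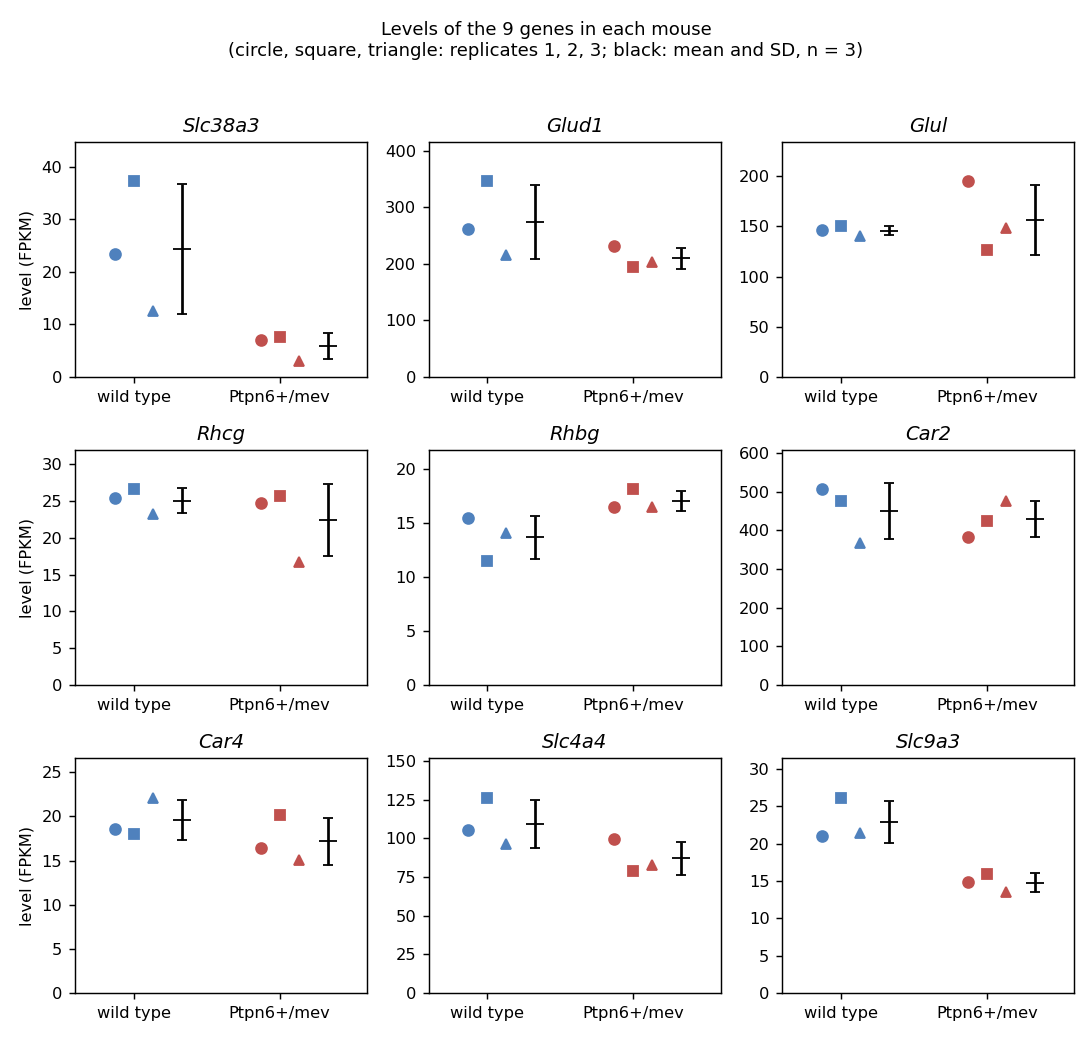
FPKM of each member in the 6 kidneys, by group, with points for single mice and the mean with its SD. *Slc38a3* and *Slc9a3* were lower in every *Ptpn6*+/mev mouse than in every wild-type mouse, *Rhbg* was higher in every one, and the other 6 overlapped.

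The groups did not overlap for 3 of the 9 members in FPKM, *Slc38a3* and *Slc9a3* lower and *Rhbg* higher in *Ptpn6*+/mev kidneys. The same was so for 20.4% of all tested genes in FPKM, 6.38% lower and 14.0% higher. On CPM, the counts scaled to library size with edgeR's TMM factors, the same 3 members were apart, and 19.4% of all genes, split almost evenly between 9.8% lower and 9.64% higher. The FPKM scale thus sat higher for *Ptpn6*+/mev kidneys: the median log2 difference of all tested genes was 0.06 on log2(FPKM + 1), against -0.002 on TMM counts.

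*Slc38a3* encodes SNAT3, a sodium-coupled amino acid transporter that brings glutamine across the basolateral membrane of the proximal tubule. It lies on chromosome 9 from 107650634 to 107669530 on the minus strand. The *Ptpn6*+/mev mice had 7.05, 7.49 and 3.10 FPKM, and the wild-type mice 23.4, 37.2 and 12.5 FPKM. The groups did not overlap, and the gap lay between 7.49 in *Ptpn6*+/mev replicate 2 and 12.5 in wild-type replicate 3. Means were 5.88 ± 2.42 and 24.4 ± 12.4 (SD, n = 3 each), and the log2 difference was -2.10 (standard error 0.46), or 4.28-fold lower. These levels rested on 83 to 193 counts in *Ptpn6*+/mev and 366 to 991 counts in wild-type kidneys. It was the most variable member by far, with a 12.0-fold range over the 6 mice, against 1.38-fold to 1.94-fold for the other 8. Leaving out 1 library at a time moved its log2 difference between -2.44 and -1.61, the last without wild-type replicate 2.

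*Glud1* encodes mitochondrial glutamate dehydrogenase, which releases ammonium from glutamate. It lies on chromosome 14 from 34310727 to 34345265 on the plus strand. Levels were 230.5, 194.0 and 203.3 FPKM in *Ptpn6*+/mev and 260.5, 345.4 and 215.9 FPKM in wild-type kidneys. The ranges overlapped, since wild-type replicate 3 lay below *Ptpn6*+/mev replicate 1, and wild-type replicate 2 was highest. Means were 209.2 ± 19.0 and 273.9 ± 65.8 (SD, n = 3 each), with a log2 difference of -0.54 (standard error 0.20). Without wild-type replicate 2 it was -0.27.

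*Glul*, glutamine synthetase, which fixes ammonium into glutamine, lies on chromosome 1 from 153899944 to 153909723 on the plus strand. It gave 194.8, 126.6 and 148.3 FPKM in *Ptpn6*+/mev kidneys, against 146.2, 150.2 and 140.7 FPKM in wild-type kidneys. The spread was within the *Ptpn6*+/mev group, whose replicates 1 and 2 were the highest and the lowest of all 6 mice. Its log2 difference was 0.03 (standard error 0.15), and its sign changed with the library left out, from -0.14 to 0.16. The difference of this ammonia-consuming enzyme was thus smaller than its standard error, whereas the means of the glutamine carrier and of the ammonia-releasing enzyme were lower in *Ptpn6*+/mev kidneys. On the reverse strand *Glul* shares 116 exon bases with *Teddm2*, which was listed at 0 in every library. On its own strand *Glul* shares 93 exon bases with the microRNA gene *Mir8114*, whose part in its counts was not tested.

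**Figure D2:**
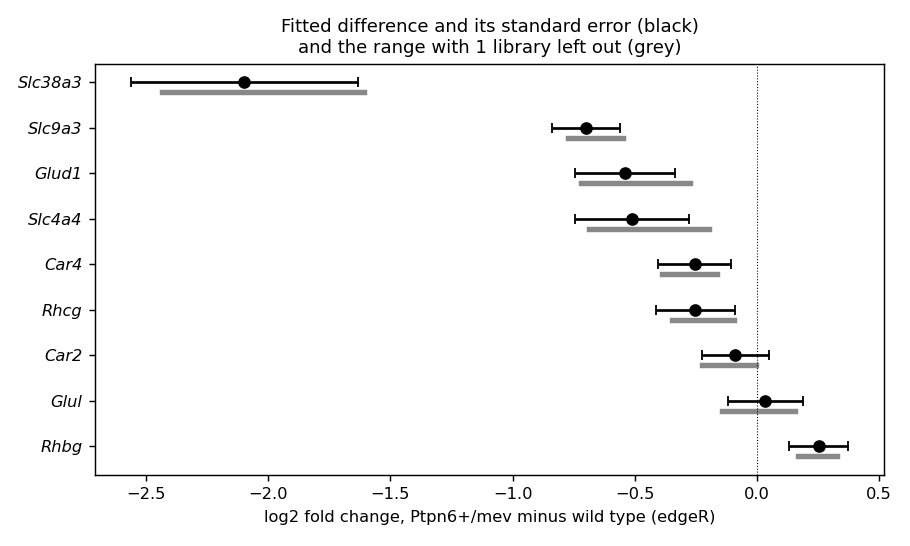
Log2 difference of each member, *Ptpn6*+/mev minus wild type, from edgeR (black points, with bars of 1 standard error), and the range over the 6 fits that each omit a library (grey). *Slc38a3* is farthest from 0 at -2.10, with a range of -2.44 to -1.61, and the range of *Glul*, -0.14 to 0.16, crosses 0.

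Among the Rh glycoproteins, *Rhcg*, the carrier on the apical and basolateral faces of collecting duct cells, lies on chromosome 7 from 79593363 to 79617657 on the minus strand. Its FPKM was 24.7, 25.7 and 16.8 in *Ptpn6*+/mev and 25.4, 26.6 and 23.2 in wild-type kidneys. All but *Ptpn6*+/mev replicate 3, the lowest, lay between 23.2 and 26.6 FPKM. The log2 difference was -0.25 (standard error 0.16), and without that mouse it was -0.09.

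*Rhbg*, the basolateral Rh glycoprotein, lies on chromosome 3 from 88242874 to 88254709 on the minus strand. It was measured at 16.53, 18.1 and 16.54 FPKM in *Ptpn6*+/mev and at 15.5, 11.5 and 14.1 FPKM in wild-type kidneys. Its groups did not overlap, in the direction opposite to *Rhcg*, and the gap between *Ptpn6*+/mev replicate 1 and wild-type replicate 1 was narrow. The log2 difference was 0.25 (standard error 0.12), and wild-type replicate 2 was the lowest library. *Rhbg* shares 1190 of its 1937 exon bases (61.4%), in 9 blocks between 88243380 and 88248463, with the read-through gene *Gm38392* on the same strand. *Gm38392* was given 0, 12.2 and 0 counts in *Ptpn6*+/mev and 0, 42.2 and 21.1 counts in wild-type kidneys, so fragments were divided between the pair unevenly by group. With the counts of both summed, an alternative chosen after the data were seen, the log2 difference was 0.17 (standard error 0.11). The summed counts were 330, 377 and 346 in *Ptpn6*+/mev and 324, 288 and 359 in wild-type kidneys. They are not scaled to library size, and wild-type replicate 3 had the largest total, so they do not show whether the groups overlapped.

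Both carbonic anhydrases overlapped between groups. *Car2*, the cytosolic enzyme of proximal and intercalated cells, lies on chromosome 3 from 14886273 to 14900770 on the plus strand, and was the most abundant member. Its 6 libraries read 383.7, 425.5 and 476.5 in *Ptpn6*+/mev and 506.0, 476.4 and 367.95 FPKM in wild-type kidneys, so a wild-type mouse was highest and another was lowest. The log2 difference was -0.09 (standard error 0.14) and came to -0.005 without wild-type replicate 2 and to -0.22 without wild-type replicate 3.

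*Car4*, the enzyme anchored to the luminal and basolateral membranes, lies on chromosome 11 from 84957786 to 84966044 on the plus strand. Levels of 16.4, 20.1 and 15.04 FPKM were found in *Ptpn6*+/mev and of 18.5, 18.0 and 22.15 FPKM in wild-type kidneys. *Ptpn6*+/mev replicate 2 stood above wild-type replicates 1 and 2. The log2 difference was -0.25 (standard error 0.15), and stayed between -0.39 and -0.16 with any 1 library left out.

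*Slc4a4* encodes NBCe1, the sodium bicarbonate cotransporter that carries bicarbonate from the proximal cell to the blood, and lies on chromosome 5 from 88886818 to 89239653 on the plus strand. Its FPKM was 99.4, 78.8 and 83.0 in *Ptpn6*+/mev and 105.6, 126.5 and 96.2 in wild-type kidneys. The ranges overlapped only in *Ptpn6*+/mev replicate 1, which exceeded wild-type replicate 3. In counts the libraries lay further apart, at 4563, 3426 and 3701 against 4770, 7407 and 4807, and the log2 difference from counts was -0.51 (standard error 0.23), whereas the log2 ratio of mean FPKM was -0.33. Without wild-type replicate 2 the difference from counts was -0.20.

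Count and FPKM together imply the transcript length that was used for each library. For *Slc4a4* this length was 5335 bases in wild-type replicate 2 and 4044 to 4471 bases in the other 5 libraries. That 1.32-fold range was wider than those of 91.8% of 11075 genes, while those of the other 8 members reached at most 1.12-fold. The isoforms behind the longer estimate were not tested.

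**Figure D3:**
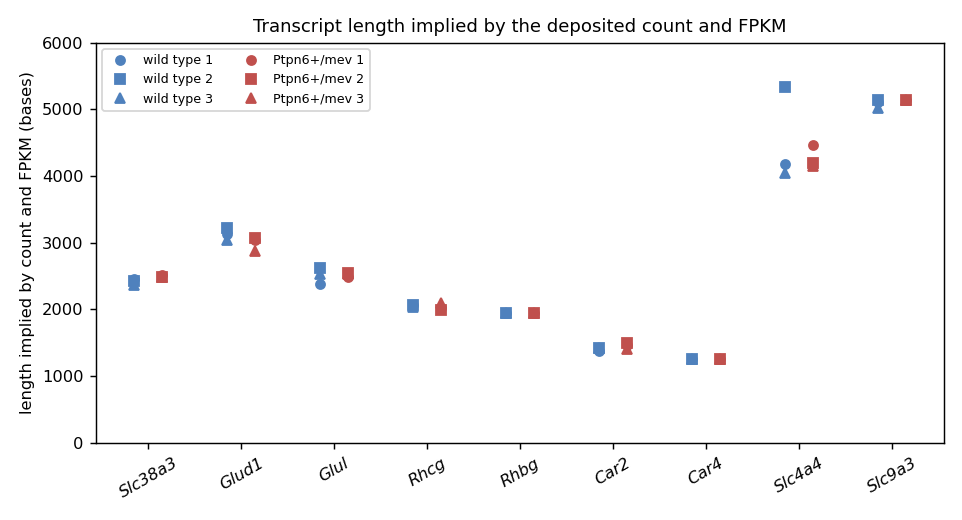
Transcript length in bases implied by the deposited count and FPKM of each member in each of the 6 libraries, on a linear axis from 0. *Slc4a4* is spread most, with wild-type replicate 2 at 5335 bases above 4044 to 4471 bases in the rest. Next widest are *Glud1* (2880 to 3219 bases) and *Glul* (2377 to 2616 bases).

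*Slc9a3* encodes NHE3, the apical exchanger that secretes protons and ammonium in trade for sodium, and lies on chromosome 13 from 74121457 to 74169442 on the plus strand. The *Ptpn6*+/mev mice had 14.8, 15.96 and 13.5 FPKM, and the wild-type mice 21.02, 26.2 and 21.45 FPKM. Each *Ptpn6*+/mev mouse lay below each wild-type mouse, and the groups' gap, from 15.96 to 21.02 FPKM, was wider than the range within the *Ptpn6*+/mev group. Means were 14.7 ± 1.25 and 22.9 ± 2.85 (SD, n = 3 each), and the log2 difference was -0.70 (standard error 0.14), or 1.62-fold lower. It held between -0.77 and -0.55 with any 1 library left out, the smallest without wild-type replicate 2.

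Markers of the proximal tubule were lower on balance in *Ptpn6*+/mev kidneys, with and without wild-type replicate 2. Of the 7 early markers 6 had a negative log2 difference (median -0.34), 3 with an unadjusted p under 0.05, and of the 7 late ones 6 did (median -0.53), 4 with an unadjusted p under 0.05. At that threshold 6.71% of all tested genes were lower. By edgeR's quasi-likelihood test 0 of either list had an FDR under 0.05. The groups were apart and lower in FPKM for 2 early and 3 late markers, where 6.38% of all genes were. The early sum was 432.5 to 531.4 FPKM in *Ptpn6*+/mev and 529.0 to 677.2 FPKM in wild-type kidneys, and the groups touched only through wild-type replicate 2, at 529.0 against 651.8 and 677.2 FPKM in the other wild-type mice. Without it all 7 early markers were negative (median -0.55) and 3 were called, *Slc22a6*, *Cubn* and *Lrp2*, in a fit that called 1.8% of all genes. The late sum was 636.1 to 838.3 FPKM against 806.8 to 1131 FPKM, whose top was wild-type replicate 2. Without it the late markers were also negative in 7 of 7 (median -0.45), and 2 were called in that fit, *Slc5a1* and *Acy3*. No proximal marker was at 0 in any group, and *Slc34a1*, the phosphate cotransporter, was at 215.8 ± 35.1 and 264.5 ± 77.1 FPKM (SD, n = 3 each). The part of these markers in the levels of *Slc38a3*, *Slc9a3*, *Slc4a4* and *Glud1* was not tested.

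In the other marker lists the sums over all 6 libraries overlapped between the groups, and most directions turned with wild-type replicate 2. Principal cell markers had 7 of 7 negative (median -0.29) with it, and 3 of 7 (median 0.0044) without it, when the wild-type sum of 313.2 to 340.3 FPKM lay inside the *Ptpn6*+/mev range of 299.7 to 451.8 FPKM. The 3 tested markers of the distal convoluted tubule moved from a median of -0.43 to -0.14. Endothelial markers had 6 of 6 positive (median 0.22), macrophage markers 6 of 6 (0.15) and red blood cell markers 5 of 5 (0.19), and without that library the medians were -0.14, -0.11 and -0.01. The endothelial sums overlapped only through that library, since those of the other wild-type mice, 255.2 and 257.1 FPKM, lay above the 229.9 to 240.8 FPKM of the *Ptpn6*+/mev mice. Neutrophil markers went from 0.15 to -0.12 and thick ascending limb markers from -0.07 to 0.02.

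Intercalated cell markers, of the cells that carry *Rhcg*, *Rhbg* and *Car2*, went both ways, 4 positive and 4 negative (median 0.02). *Hepacam2* (log2 difference 0.65) and *Slc4a1* (0.61) were apart and higher and *Slc4a9* (-0.83) apart and lower, beside 14.0% and 6.38% of all genes. With wild-type replicate 2 omitted the median was 0.23, and *Hepacam2* was called, in a fit that called 1.8% of all genes. Markers of injured tubule summed to 26150 to 32050 FPKM in *Ptpn6*+/mev and 29570 to 38330 FPKM in wild-type kidneys, mostly from *Spp1* (mean 25630 FPKM over 6 mice, log2 difference -0.38). The median of the 7 was 0.08, or 0.26 without wild-type replicate 2, when *Krt20* was called in that same fit. In 2 of the 7 the groups were apart and higher in FPKM, as in 14.0% of all genes. These were *Havcr1*, at 1505 ± 64.6 against 1203 ± 100.3 FPKM (SD, n = 3 each; log2 difference 0.27, adjusted p = 0.325), and *Vcam1*, at 20.0 ± 5.85 against 9.68 ± 3.27 FPKM (1.05, adjusted p = 0.188). The part of these lists in the members' levels was not tested. The values of marker lists without wild-type replicate 2 were computed after the data were seen.

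Across the 6 mice the members kept a wide spread of levels per length. *Car2* was highest at 439.3 ± 55.8 FPKM (SD, n = 6), followed by *Glud1* at 241.6 ± 55.9, *Glul* at 151.1 ± 23.0 and *Slc4a4* at 98.2 ± 17.1. *Rhcg* at 23.7 ± 3.60, *Slc9a3* at 18.8 ± 4.87, *Car4* at 18.4 ± 2.56, *Rhbg* at 15.4 ± 2.32 and *Slc38a3* at 15.1 ± 12.9 FPKM came after. The last place of *Slc38a3* came from the *Ptpn6*+/mev mice, at 5.88 FPKM, since its wild-type mean of 24.35 FPKM lay above those of *Slc9a3* (22.9), *Car4* (19.6) and *Rhbg* (13.7). The ranges of neighbours were apart between *Car2* and *Glud1*, between *Glul* and *Slc4a4* and between *Slc4a4* and *Rhcg*. *Glud1* and *Glul* overlapped, as did each neighbour among the lower 5.

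Profiles over the 6 libraries were compared by the root mean square difference of centred log2 CPM, where 0 is an identical profile. *Glud1* and *Slc4a4* were the closest pair of members (0.0765), followed by *Glud1* and *Slc9a3* (0.189) and, almost as close, *Rhcg* and *Car4* (0.194). *Slc38a3* was farthest from the rest, at 0.845 from *Slc9a3* and 1.32 from *Rhbg*. Wild-type replicate 2 was 0.72 above the mean in *Glud1*, 0.77 in *Slc4a4*, 0.63 in *Slc9a3* and 1.84 in *Slc38a3*, and -0.29 in *Rhbg*. It was the highest library in each of these genes but *Rhbg*, where it was the lowest. These are descriptions of 6 points that share their libraries and depths.

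**Figure D4:**
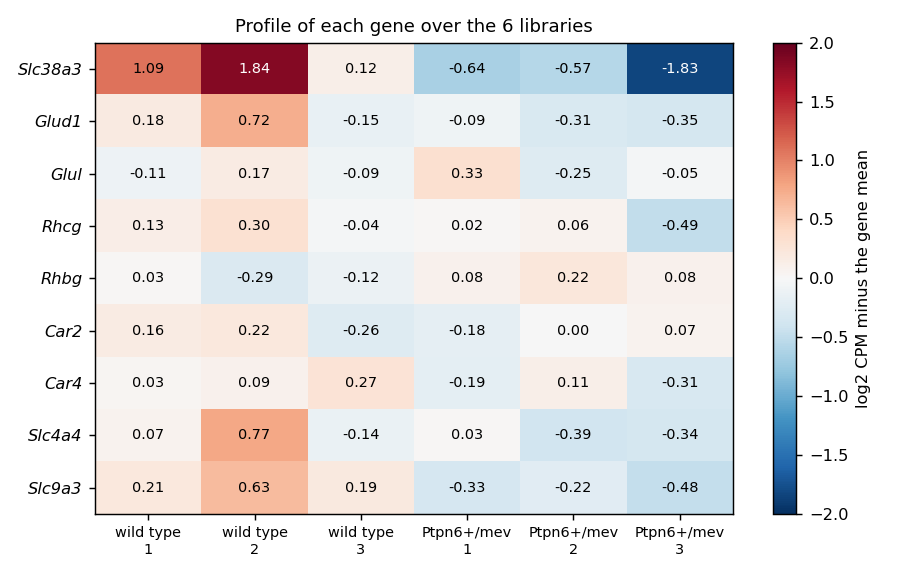
Centred log2 CPM of the 9 members (rows) in the 6 libraries (columns), with red above and blue below the member's mean. Wild-type replicate 2 is at 1.84 for *Slc38a3*, 0.77 for *Slc4a4* and 0.72 for *Glud1*, and *Ptpn6*+/mev replicate 3 is at -1.83 for *Slc38a3*.

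Among 11853 tested genes with a mean of at least 1 FPKM, the 3 nearest to *Slc38a3* were *Mbl1* (0.286), *Pck1* (0.351) and *Gbp6* (0.355). The nearest to *Glud1* were *Gk* (0.0657), *Pxmp4* (0.0714) and *Tfcp2l1* (0.0735), and *Tfcp2l1* (0.069) and *Gk* (0.0736) also followed *Abcd3* (0.0594) beside *Slc4a4*. *Slc9a3* lay nearest to *Dab2* (0.0485), *Ctbs* (0.0627) and *Smtnl2* (0.0627). For *Glul* the nearest were *Eif2s2* (0.0406), *Smc5* and *Gramd1b*, for *Rhcg* *Tdp2* (0.0426) and *Dnph1*, and for *Rhbg* *Emc8* (0.028), *Ncapd3* and *Antxr2*. *Car2* lay nearest to *Fam174a* (0.0486), *Bloc1s5* and *Mrpl57*, and *Car4* lay close to *Pde4b* (0.0521) and *Rab38* (0.0603).

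The other genes of the pathway, 123 in 7 lists drawn up by role and without the members, were read in the same fit. Of the 109 that were tested, 0 had an FDR under 0.05 by edgeR's quasi-likelihood test (0.138% of all tested genes), with FDR values from 0.104 to 0.992. At an unadjusted p under 0.05, 15 were lower and 5 higher in *Ptpn6*+/mev kidneys (6.71% and 5.53% of all tested genes), and the median log2 difference was -0.09. DESeq2 and edgeR's exact test each called the same 6, where they called 3.04% and 2.99% of all genes. Among these 6 were *Pck1*, *Gpt2* and *Slc4a9*, which were lower, and *Atp6v1c1* and *Atp6v0b*, which were higher.

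The list of glutamine entry and ammonia-forming enzymes had 20 tested genes, 17 of them negative, with a median log2 difference of -0.16. Lower at an unadjusted p under 0.05 were 5 and higher 0, beside 6.71% and 5.53% of all tested genes. *Pck1*, the cytosolic carboxykinase that draws the carbon of glutamine toward glucose, gave 274.3, 274.6 and 226.6 FPKM in *Ptpn6*+/mev and 858.3, 1389 and 437.7 FPKM in wild-type kidneys. No *Ptpn6*+/mev mouse reached the lowest wild-type mouse, and the log2 difference was -1.88 (standard error 0.38, adjusted p = 0.104, edgeR's quasi-likelihood test). Without wild-type replicate 2, where 1.8% of all genes were called, it was -1.37 (adjusted p = 0.0238). Without wild-type replicate 3, where 0.508% of all genes were called, it was -2.22 (adjusted p = 0.0177). *Gpt2*, the mitochondrial alanine aminotransferase, was at 26.6 ± 4.98 against 44.8 ± 7.87 FPKM (SD, n = 3 each; log2 difference -0.83, adjusted p = 0.122). *Ogdh*, which takes 2-oxoglutarate on in the citric acid cycle, differed by -0.24 (adjusted p = 0.257). *Ggt1*, the brush-border transpeptidase, was at 290.1 ± 33.04 and 307.5 ± 66.65 FPKM (SD, n = 3 each), and its groups overlapped.

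Among ammonia and potassium routes, 12 of 14 genes were tested, and the median log2 difference of the list was -0.22. Of these, 3 were lower and 0 higher at an unadjusted p under 0.05, beside 6.71% and 5.53% of all tested genes. Without wild-type replicate 2 the list's median was -0.05, and with any other library left out it lay between -0.36 and -0.12. *Atp1b1*, the beta subunit of the sodium pump, was at 680.3 ± 55.2 against 822.9 ± 127.9 FPKM (SD, n = 3 each; log2 difference -0.38, adjusted p = 0.432). *Aqp8*, an aquaporin that also passes ammonia, was low in both groups, at 1.78 ± 0.378 and 3.77 ± 1.80 FPKM, and its log2 difference was -1.15 (adjusted p = 0.24). *Kcnj1*, the ROMK potassium channel of the thick ascending limb, was named after its values were seen. It differed by 0.92 (adjusted p = 0.00367) without wild-type replicate 2, in a fit that called 1.8% of all genes. With that library it differed by -0.13 (adjusted p = 0.955). *Rhag*, the erythroid Rh glycoprotein, was at 0 in all 6 libraries.

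The carbonic anhydrase family, with 10 of 14 genes tested, had 1 higher and 1 lower at an unadjusted p under 0.05. That was beside 5.53% and 6.71% of all tested genes, and the list's median was -0.22. *Car13*, a cytosolic enzyme, was at 14.5 ± 1.88 against 11 ± 0.841 FPKM (log2 difference 0.33, adjusted p = 0.352), and *Car5b*, a mitochondrial one, at 32.95 ± 3.47 against 40.2 ± 5.05 FPKM (SD, n = 3 each; -0.36, adjusted p = 0.336). *Car15* was the most abundant of the list, at 231.0 ± 54.3 and 181.0 ± 40.4 FPKM, with overlapping groups, and *Car12* came after it at 42.95 ± 4.37 and 49.5 ± 6.88 FPKM (SD, n = 3 each).

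Bicarbonate transporters, 12 of 17 tested, had 1 higher and 1 lower at an unadjusted p under 0.05 (5.53% and 6.71% of all tested genes). Their median was -0.03, and it lay between -0.07 and 0.0047 with 1 library left out. *Slc4a9*, the AE4 transporter of intercalated cells, was at 8.73 ± 1.33 against 14.7 ± 3.00 FPKM (SD, n = 3 each; log2 difference -0.83, adjusted p = 0.15). *Slc4a1*, the AE1 exchanger of acid-secreting intercalated cells and red blood cells, was at 3.30 ± 0.852 against 2.07 ± 0.299 FPKM (0.61, adjusted p = 0.311). The red blood cell markers ranged more widely within groups, from 589.4 to 1634 FPKM and from 502.5 to 1299 FPKM, and their part in *Slc4a1* was not tested. *Slc26a1* and *Slc4a2*, the most abundant of the list, were at 35.9 ± 6.08 against 25.8 ± 11.5 FPKM and at 30.5 ± 2.03 against 24.1 ± 5.01 FPKM (SD, n = 3 each).

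Sodium-proton exchangers and their scaffolds, 14 of 15 tested, had 12 negative log2 differences and a median of -0.13. Only 2 were lower and 0 higher at an unadjusted p under 0.05, where 6.71% and 5.53% of all tested genes were. *Pdzk1*, a scaffold of the brush border, was at 246.0 ± 23.9 against 285.8 ± 65.6 FPKM (log2 difference -0.36, adjusted p = 0.341). *Pdzd3*, a scaffold that binds NHE3, was also named after its values were seen. It was at 27.8 ± 3.35 against 36.3 ± 4.62 FPKM (-0.45, adjusted p = 0.177). Without wild-type replicate 2, where 1.8% of all genes were called, it differed by -0.53 (adjusted p = 0.0442). *Ezr*, which ties these scaffolds to actin, was at 269.8 ± 15.9 and 266.4 ± 8.80 FPKM (SD, n = 3 each).

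Subunits of the vacuolar proton pump, which acidifies the urine in intercalated cells and the lysosome in every cell, were the list with the most genes on the higher side. Of 24 tested, 3 were higher and 0 lower at an unadjusted p under 0.05 (5.53% and 6.71% of all tested genes). The list's median was 0.06, and this was 0.0045 when wild-type replicate 3 was omitted and 0.13 when wild-type replicate 2 was. In FPKM 10 of the 24 were apart and higher in *Ptpn6*+/mev kidneys, where 14.0% of all genes were, but on TMM-scaled CPM 4 were apart and higher (9.64%) and 2 were apart and lower (9.8%). *Atp6v1c1* was at 75.1 ± 1.24 against 53.8 ± 2.48 FPKM (log2 difference 0.41, adjusted p = 0.115), *Atp6v0b* at 363.7 ± 13.8 against 267.0 ± 15.8 FPKM (0.39, adjusted p = 0.104) and *Atp6v0d1* at 109.4 ± 1.903 against 85.7 ± 7.46 FPKM (SD, n = 3 each; 0.29, adjusted p = 0.207). Without wild-type replicate 2 *Atp6v1c1* differed by 0.47 (adjusted p = 0.0287), in a fit that called 1.8% of all genes. These 3 are subunits found in most cells. *Atp6v0c*, the most abundant subunit, was at 496.9 ± 1.88 and 487.4 ± 17.5 FPKM, and *Atp6v1b1* and *Atp6v0a4*, the forms enriched in intercalated cells and named after their values were seen, differed by 0.13 (adjusted p = 0.674) and -0.05 (adjusted p = 0.932).

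Acid sensors and regulators, 17 of 18 tested, had a median of -0.08. At an unadjusted p under 0.05, 3 were lower and 0 higher (6.71% and 5.53% of all tested genes). *Hnf4a*, a transcription factor of the proximal tubule, was at 144.0 ± 19.2 against 176.0 ± 24.1 FPKM (SD, n = 3 each; log2 difference -0.36, adjusted p = 0.308). *Zfp36l1*, which binds AU-rich elements in mRNA, was at 49.0 ± 6.34 against 64.8 ± 10.2 FPKM (-0.47, adjusted p = 0.216).

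**Figure D5:**
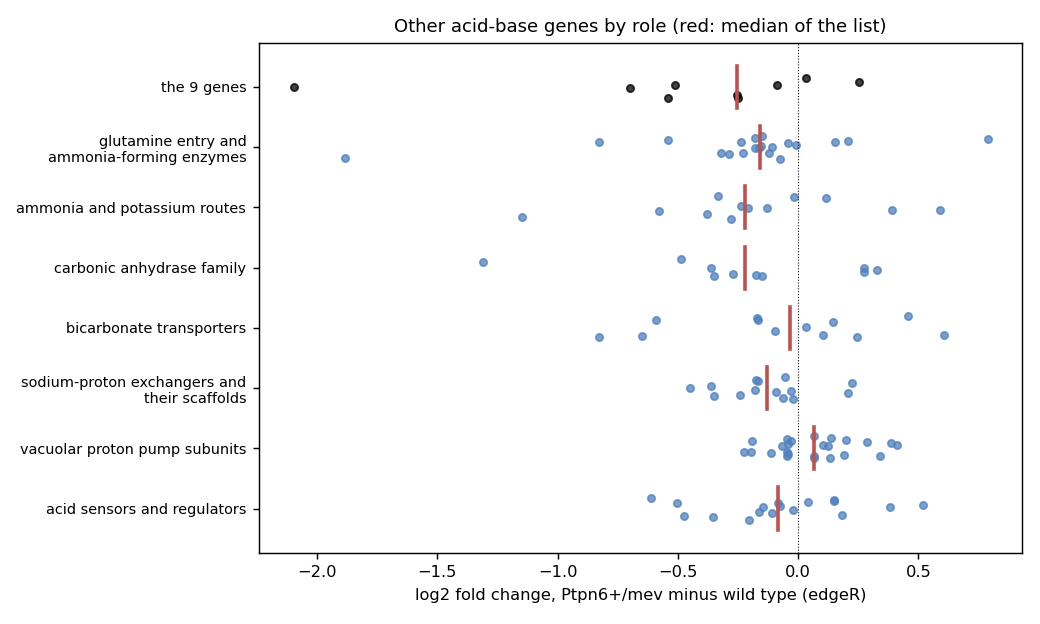
Log2 differences, *Ptpn6*+/mev minus wild type, of the tested genes in each of the 7 pathway lists and of the 9 members (black), 1 point per gene, with a red line at the median. The members' median is -0.25, the list medians run from -0.22 for the carbonic anhydrases and for the ammonia routes to 0.06 for the proton pump, and *Pck1* is the lowest pathway gene at -1.88.

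The KEGG terms in the deposited table, read after the data were seen, cover the proximal and the distal end of the route. Proximal tubule bicarbonate reclamation held 22 genes, 6 of them members, and of the 14 tested others 3 were lower and 0 higher at an unadjusted p under 0.05. Collecting duct acid secretion held 27 genes, 1 of them a member, and of the 24 tested others 3 were higher and 1 lower. Of all tested genes, 5.53% were higher and 6.71% lower at that threshold. No gene of either term other than the members had an FDR under 0.05 by edgeR's quasi-likelihood test, where FDR values began at 0.104 and 0.115.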

How the data were processed

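Left kidneys of 3 *Ptpn6*+/mev and 3 wild-type mice were profiled by mRNA sequencing. The authors aligned reads to GRCm38.p5 with TopHat (the submitters' processing notes also name Bowtie2, Cufflinks and RSEM), and the table they deposited gives estimated counts and FPKM for 21367 genes in every library. Which tool made the counts is not given in the sources used here. FPKM was used as the authors deposited it. Estimated counts, fractional in 1744 genes, were rounded to whole numbers, since the count test needs them. Total counts were 10271590 to 12361745 per library, and precision was set by the spread of 3 mice per group.

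Groups came from the sample labels. Counts were compared with edgeR 4.0.16 in R 4.3.3 (TMM, filterByExpr, quasi-likelihood F test, Benjamini-Hochberg adjustment over 13036 genes, FDR under 0.05). On simulated data with 200 changed genes this test recovered 66.7% of 2-fold and 96.8% of 4-fold changes, with 7.06% false calls. The simulated libraries were drawn independently, and none stood apart from its group as wild-type replicate 2 did. These shares therefore need not hold for the real libraries, where *Slc38a3*, 4.28-fold lower, had an FDR of 0.122. The 15 alternatives were DESeq2's size factors, upper quartile normalization, the DESeq2 1.42.0 Wald test, edgeR's exact test, limma 3.58.1 on log2(FPKM + 1) and log2(FPKM + 0.1), no filter, a minimum of 10 counts per library, a replicate block, and 6 fits that each omitted a library. The log2 difference is *Ptpn6*+/mev minus wild type. Profiles used log2 CPM with a prior count of 2. Figures and summaries used Python 3.11.15, numpy 2.4.6, pandas 2.3.3 and matplotlib 3.10.9. Gene positions are from GENCODE M21 (GRCm38) and promoter windows from RefSeq (GRCm38.p6).

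The members and the lists were chosen with earlier results of these data known. Named pathway genes were, in each list, those with an FDR under 0.05, the 2 with the highest mean FPKM, and up to 3 with the largest difference among those with an unadjusted p under 0.05, no overlap of FPKM and a mean of at least 1 FPKM. Some genes meeting this rule are not reported here. The motifs, the KEGG terms, the summed *Rhbg* counts and the marker lists without wild-type replicate 2 were chosen after the data were seen. Gene Ontology terms in the deposited table were not used.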

Additional observations from a re-analysis of the deposited data

How the results depend on the processing

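With 3 mice per group, calls depended on the test more than on the scaling. Over all genes the quasi-likelihood test called 18, DESeq2 388, edgeR's exact test 390, and the fit with no filter on low counts 52. Leaving out 1 library gave 1 to 237 calls, the most without wild-type replicate 2. With the replicate number as a block 1 gene was called. The numbers do not pair the mice by any label, and the deviations of same-numbered mice correlated at -0.144, -0.184 and -0.13. Members called were 0, against 2 by DESeq2, 2 by the exact test, and 0 to 2 with 1 library left out. Pathway genes called rose from 0 to 2 for the glutamine list, 1 for bicarbonate transporters, 2 for proton pump subunits and 1 for regulators under DESeq2 and under the exact test alike. With 1 library left out they ranged from 0 to 1 for the glutamine list, the ammonia routes, the exchangers and the proton pump. The cause was not tested.

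The log2 difference of every member other than *Glul* kept its sign in all 15 alternatives. The median for the glutamine list was -0.0847 on log2(FPKM + 1) and -0.0869 on log2(FPKM + 0.1). For the carbonic anhydrases it was -0.11 on log2(FPKM + 1), -0.17 with no filter, -0.27 with at least 10 counts, where fewer genes were tested, and -0.32 to -0.18 with 1 library left out. For the exchangers it was -0.0086 on log2(FPKM + 1), -0.0386 on log2(FPKM + 0.1) and -0.1948 to -0.0351 with 1 library left out, and for the regulators 0.0089, 0.0162 and -0.1794 to -0.072. On the FPKM scale the median of all genes was itself at 0.06 and 0.08.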
